A study of Mus musculus with 12 samples.

Results

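Among the regions bound by NeuroD2 in mouse P19 cells, 3542 were also held by exactly 1 of a pair of mutant MyoD proteins and by neither MyoD nor the unmutated chimera. They were found by pooling the intervals of 5 deposited lists of binding sites and merging those that overlapped by at least 1 base, which gave 60136 regions in all. Of the 3542 regions, 2360 had intervals of NeuroD2 and the WC mutant only, and 1182 had intervals of NeuroD2 and the WCS mutant only. They are called WC-taken and WCS-taken regions here. The regions were chosen by their presence in or absence from the 5 lists, which rests on the authors' site calls, so the counts and the list values are descriptions. Each group has 1 list, so no test between proteins was possible.

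The 5 proteins were expressed by viral transduction in P19, an embryonal carcinoma line, and mapped by chromatin immunoprecipitation followed by sequencing (ChIP-seq). Cells carried MD(ND2bHLH)WC, MD(ND2bHLH)WCS, the MD(ND2bHLH) chimera, NeuroD2 or MyoD, and untransduced P19 cells served the submitters as negative controls. The chimera is MyoD with the basic helix-loop-helix (bHLH) domain of NeuroD2, WC and WCS are mutants of it, and the labels do not say what those letters mean. Each of the 6 groups had 2 libraries, 12 in all. MyoD antibodies 6196 and 6975 were used for WC, WCS, the chimera and MyoD, antibodies 1165 and 1240 for NeuroD2, and antibodies 6975 and 1240 for untransduced cells. The labels of all 12 libraries give polybrene at 8 µg/ml, a change of medium at 24 h and a neuronal medium (neurobasal) at 48 h. Cells were later fixed with 1% formaldehyde for 11 min. Nothing in the labels says that the libraries of a group came from separate cultures. Sites of untransduced cells were not analysed here, and the counts stand without a background level.

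NeuroD2 and MyoD belong to the same family of transcription factors. A bHLH protein pairs with a partner through its helices and reads a short DNA motif, the E-box, with its basic region. NeuroD2 drives neuronal differentiation and MyoD drives skeletal muscle differentiation. Replacing the bHLH domain of MyoD changes the part of the protein that reads DNA and leaves the rest of MyoD in place. The comparison made here asks which NeuroD2 regions absent from the MyoD and chimera lists were listed for a single mutant, and how the WC-taken regions differed from the WCS-taken ones. No genome of the build of the lists (mm9) was used, so no region is given a sequence or a gene.

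The WC-taken regions outnumbered the WCS-taken regions 2360 to 1182, a share of 66.6% for WC (exact 95% Clopper-Pearson interval 65.0 to 68.2%, which covers counting error only, as do all intervals here). Over all 60136 merged regions 14.2% were held by WC and not WCS and 6.54% by WCS and not WC. Of the 21556 NeuroD2 regions without MyoD or the chimera, 10.9% were WC-taken and 5.48% WCS-taken, while 35.3% were held by both mutants and 48.3% by neither. Both shares of regions held by a single mutant were below the shares over all merged regions, but the sets are unlike. The merged regions include 3795 of WC alone and 1829 of WCS alone that no other list held. Those regions exist only because a mutant was listed there.

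The split between WC-taken and WCS-taken regions changed when the lists were cut to a common length. The WC list has 27045 sites and the WCS list 22462. Cut to its 22462 sites of highest value, the WC list gave another split: 1593 regions were WC-taken and 1845 WCS-taken, and the WC share fell to 46.3% (44.7 to 48.0%), against 66.6% with the full list. Shortening removed WC from 767 of the 2360 WC-taken regions, or 32.5%, and from 662 of the 7602 regions held by both mutants, or 8.71%. Cutting the WC list alone can only take WC away from regions, so a lower WC share was built into that setting. With every list cut to 14375 sites, the length of the shortest, 619 regions were WC-taken and 709 WCS-taken. That setting, too, took more sites from the WC list than from the shorter WCS list, by construction. Where every list was cut by 1 rule without making the lengths equal, the WC share did not fall. It was 67.9% with the upper 50% of each list and 75.4% with values of at least 10 in every list. The lists' read depths are unknown, and their part in the difference in list length was not tested.

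**Figure D1:**
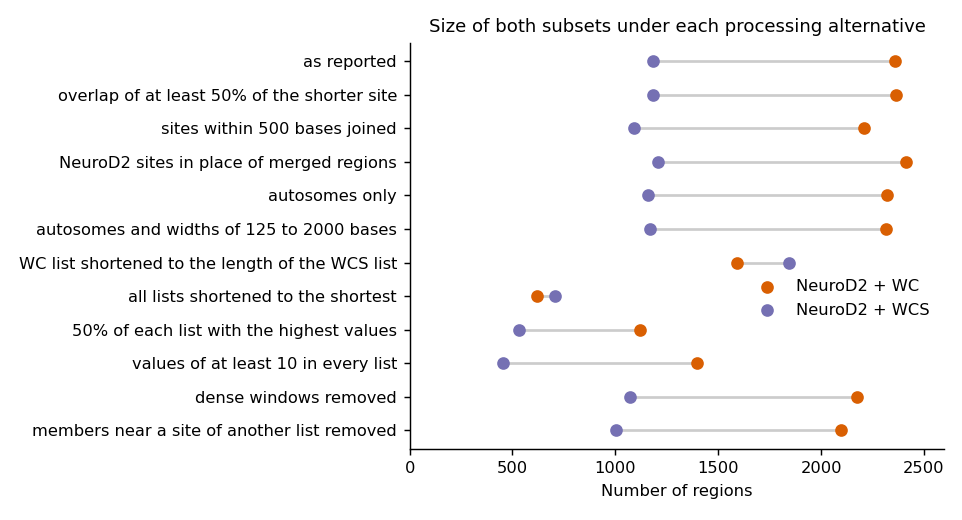
Number of NeuroD2 regions held by WC alone (orange) and by WCS alone (purple) as reported and under each of 11 processing alternatives, with 1 row per setting and a grey line joining both counts. WC-taken regions were more numerous in every row except those with the WC list or all lists shortened to a common length, where 1593 stood against 1845 and 619 against 709.

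The WC share of regions with exactly 1 mutant varied with the other lists that held the region. Among regions in no list other than a mutant's, 3795 were held by WC alone and 1829 by WCS alone, a WC share of 67.5% (66.2 to 68.7%), an interval that holds the 66.6% of the NeuroD2 regions described here. Where MyoD was the other list the WC share was 60.4% (56.5 to 64.1%), and where both NeuroD2 and MyoD were, it was 62.6% (57.8 to 67.1%). Where the chimera was the other list it was 82.4% (79.2 to 85.3%), with NeuroD2 and the chimera 76.5% (71.3 to 81.2%), with MyoD and the chimera 76.3% (73.3 to 79.1%), and with all 3 of them 73.3% (68.8 to 77.4%). Each share in a region with the chimera was thus above 66.6%, and the differences were not tested. Only 1 mutant held 31.8% of the 11144 NeuroD2 regions held by any mutant without MyoD or the chimera. That share was 10.3% of the 2897 held with NeuroD2 and the chimera and 72.3% of the 7775 in no other list. It was 27.3% with NeuroD2 and MyoD and 10.7% with NeuroD2, MyoD and the chimera. Without NeuroD2 it was 62.5% with the chimera, 62.9% with MyoD and the chimera, and 67.3% with MyoD.

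Regions taken by 1 mutant had NeuroD2 values between those of regions held by both mutants and those of regions held by NeuroD2 alone. Each site has a value from the authors, probably the negative log10 of a p-value, although no label or header names it, so values are compared within a list, and a limit set alike in several lists need not mean the same in each. In the NeuroD2 list the median value was 9.50 in WC-taken regions (quartiles 6.57 and 15.2) and 8.61 in WCS-taken regions (6.26 and 12.9). It was 15.6 in regions held by both mutants (9.18 and 28.4) and 7.48 in regions of NeuroD2 alone (5.88 and 10.7), and the median over the whole NeuroD2 list was 10.5. The medians of both subsets lay at percentiles 44.8 (WC-taken) and 40.0 (WCS-taken) of the NeuroD2 list. The quartiles of both subsets overlapped each other and those of the other 2 classes.

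**Figure D2:**
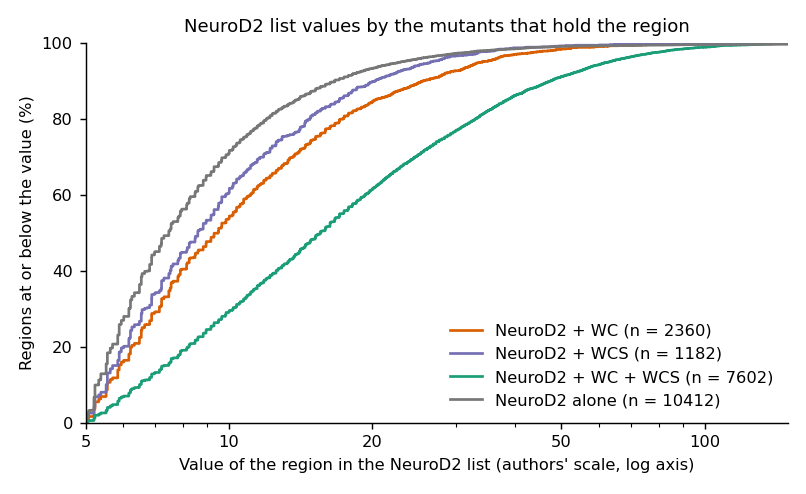
Cumulative share of regions (vertical axis, %) at or below each value in the NeuroD2 list (horizontal axis, authors' scale, logarithmic) for NeuroD2 regions also held by WC alone, by WCS alone, by both mutants and by neither. Both one-mutant curves lie between the other 2, with medians of 9.50 (WC) and 8.61 (WCS) against 15.6 (both) and 7.48 (neither).

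The difference in median NeuroD2 value between WC-taken and WCS-taken regions was 0.895 on the authors' scale, with bounds of 0.211 and 1.41 from the exact intervals of both medians. It kept its sign under all 11 alternatives, from 0.608 to 1.39, but the bounds included 0 in 4 of them, those with all lists shortened, with the upper 50% of each list, with values of at least 10, and with autosomes and a common range of widths. In WC-taken regions 43.3% of NeuroD2 values were at or above the list's median (41.3 to 45.3%), against 35.9% in WCS-taken regions (33.1 to 38.7%). NeuroD2 values over 20 were found in 15.6% of WC-taken and 10.3% of WCS-taken regions, against 38.6% of regions held by both mutants and 6.79% of regions of NeuroD2 alone.

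One-mutant regions made up the smallest share of NeuroD2 regions where NeuroD2 values were highest, and the share held by both mutants was then largest. The 21556 NeuroD2 regions without MyoD or the chimera were divided into 5 equal bins by NeuroD2 value. Going up from the lowest values (bin 1), the share held by both mutants was 13.4, 19.3, 28.9, 44.3 and 70.5%. The share held by neither was 71.0, 62.4, 52.9, 37.9 and 17.3%. The share that was WC-taken was 9.69, 12.0, 11.6, 12.3 and 9.12%, and the share that was WCS-taken was 5.89, 6.24, 6.56, 5.61 and 3.11%. The 1-mutant share, WC and WCS added up, had its highest values in bins 2 and 3, at 18.3% (17.1 to 19.4%) and 18.2%, and its lowest in bin 5, at 12.2% (11.3 to 13.2%). The WCS-taken share fell the more, to 3.11% in bin 5 (2.61 to 3.67%), against 6.56% in bin 3 (5.84 to 7.35%).

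**Figure D3:**
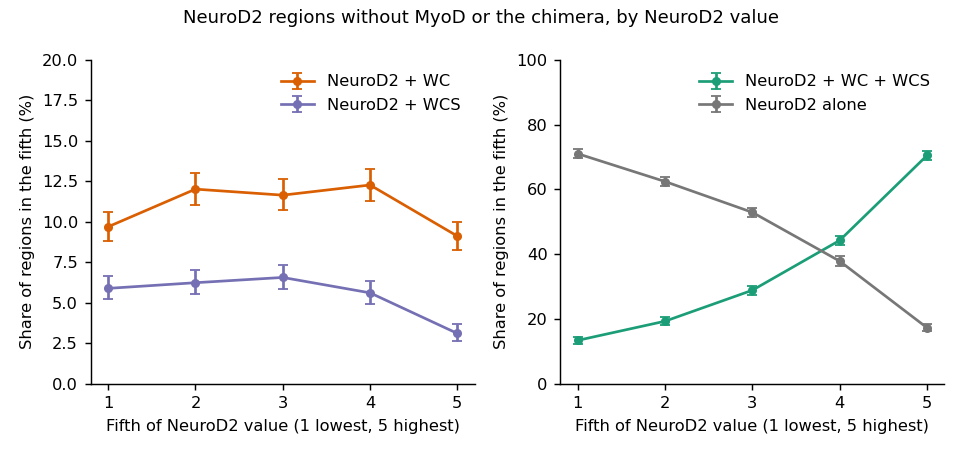
Share of NeuroD2 regions without MyoD or the chimera (vertical axes, %, scaled differently in both panels) in each of 5 equal bins of NeuroD2 value, with exact 95% intervals; left, regions held by WC alone and by WCS alone, right, by both mutants and by neither. The WC-taken share stays between 9.12 and 12.3% and the WCS-taken share between 3.11 and 6.56%, while the share held by both mutants reaches 70.5% in bin 5.

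Among NeuroD2 regions that either mutant held, the share held by only 1 of them fell with NeuroD2 value. In bin 1 a single mutant held 672 of 1250 such regions, or 53.8% (51.0 to 56.6%). In bin 3 it was 785 of 2030, or 38.7%, and in bin 5 it was 527 of 3565, or 14.8% (13.6 to 16.0%). The WC share of the one-mutant regions was 62.2% in bin 1 (58.4 to 65.9%) and 74.6% in bin 5 (70.6 to 78.2%). With the WC list cut to 22462 sites it was 40.9% (37.0 to 44.9%) in bin 1 and 56.9% (52.6 to 61.1%) in bin 5, so the order of both bins remained while the majority in bin 1 passed to WCS.

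The sites of the holding mutants lay low in their own lists. The median WC value in WC-taken regions was 7.24 (quartiles 5.96 and 9.67), at percentile 27.8 of the WC list, whose overall median was 10.5. The median WCS value in WCS-taken regions was 6.39 (quartiles 5.52 and 7.72), at percentile 21.2 of the WCS list, whose overall median was 10.0. Regions held by both mutants had median values of 12.4 in the WC list and 11.0 in the WCS list, at percentiles 57.6 and 54.9. The lowest WC value of the list was 5.04 and the lowest WCS value 5.03, so many members lay just above the point where each list ends. Of the WC-taken regions 19.5% (17.9 to 21.1%) had a WC value at or above the median of the WC list, and of the WCS-taken regions 8.88% (7.32 to 10.7%) had a WCS value at or above that of the WCS list.

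The share absent from the other mutant fell with the value of the mutant that held the region. The 9962 NeuroD2 regions held by WC, without MyoD or the chimera, were divided into 10 bins by WC value. WCS was absent from 54.2% of them in the lowest bin (51.0 to 57.3%), 22.8% in bin 5 and 2.41% in bin 10 (1.55 to 3.56%). In the 8784 regions held by WCS, WC was absent from 40.3% in the lowest bin (37.0 to 43.6%), 10.1% in bin 5 and 0.911% in bin 10 (0.394 to 1.79%). The 2 lists were binned separately, so the same bin number stands for different values. In bins 8 and 9 WC was absent from 0.683 and 0.456% of WCS regions, and WCS from 7.13 and 4.82% of WC regions.

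**Figure D4:**
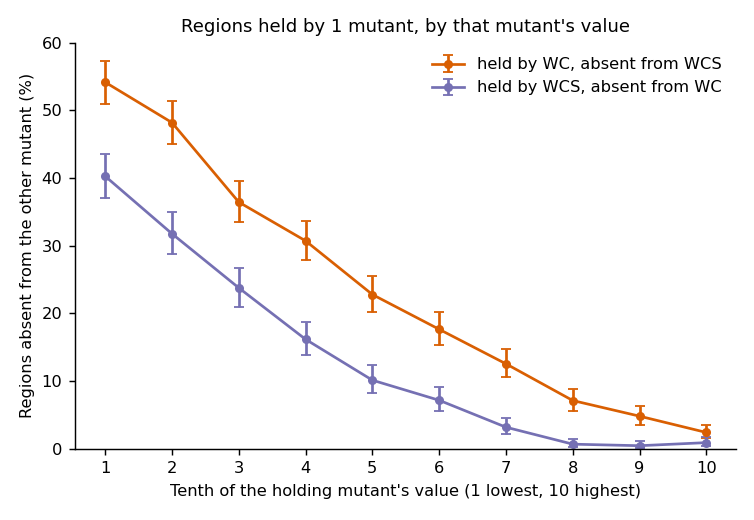
Share of NeuroD2 regions without MyoD or the chimera that the other mutant lacked (vertical axis, %), in 10 equal bins by the value of the mutant that held them (horizontal axis, bin 1 lowest), with exact 95% intervals. The share falls from 54.2 to 2.41% for regions held by WC and from 40.3 to 0.911% for regions held by WCS.

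Values in both lists of a region were only weakly related within the one-mutant regions. Across the 2360 WC-taken regions Spearman's rho between NeuroD2 and WC values was 0.12, and across the 1182 WCS-taken regions that between NeuroD2 and WCS values was 0.10. In the 7602 regions held by both mutants the corresponding coefficients were 0.47 for WC and 0.42 for WCS. Regions are not replicates, and the range of mutant values in the one-mutant regions is narrower, which lowers a coefficient. Both values were below their lists' medians in 47.2% of WC-taken regions (45.2 to 49.3%) and 59.1% of WCS-taken regions (56.2 to 61.9%). A NeuroD2 value at or above the median with a mutant value below it was found in 33.3% of WC-taken and 32.1% of WCS-taken regions. Both values were at or above the medians in 10.0% of WC-taken (8.86 to 11.3%) and 3.81% of WCS-taken regions (2.79 to 5.06%).

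A small number of regions were high in the list of 1 mutant and absent from the other. WC values over 20 were found in 75 WC-taken regions, 3.60% of the 2084 NeuroD2 regions without MyoD or the chimera that had such a value (2.84 to 4.49%). Over all merged regions with a WC value over 20, 7.16% were absent from WCS. WCS values over 20 were found in 10 WCS-taken regions, 0.638% of 1567 (0.306 to 1.17%). Over all merged regions with a WCS value over 20 the share absent from WC was 0.272%. That share rests on 14 regions, which include these 10, so it is not a separate background. The 75 WC-taken regions lay on 19 chromosomes, and 51 of them had a NeuroD2 value at or above the list's median. Of these 75, 7 lay on X, which held 1.74% of all WC-taken regions. The MyoD and chimera lists have 0 sites on X. The 10 WCS-taken regions lay on 7 chromosomes, 0 of them on X, and all 10 had a NeuroD2 value at or above the list's median. For other regions with a mutant value over 20, the shares on X and at or above the NeuroD2 median were not computed.

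Dense clusters of sites held most of these WCS-taken regions and fewer of the WC-taken ones. A window of 100 kb was called dense where any list had 10 or more sites in it, and 8.26% of all merged regions lay in such windows. Of the WCS-taken regions with values over 20, 9 of 10 lay in dense windows and 5 had a WC site within 1 kb. Of the WC-taken regions with values over 20, 19 of 75 lay in dense windows and 14 had a WCS site within 1 kb. The matching shares over all regions with a mutant value over 20 were not computed, so these counts are not read as particular to the members. With dense windows removed, the share of bin 10 absent from the other mutant was 1.88% for WC (1.10 to 2.99%) and 0.126% for WCS (0.00318 to 0.698%). With autosomes and a common range of widths only, it was 1.85% for WC and 1.64% for WCS, so the gap between the mutants at high values depended on which sites were kept. How uniquely reads map in dense windows was not tested.

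The WC-taken region with the highest NeuroD2 value was also the one with the highest WC value. It lay at chr3:141854455-141855003 (mm9, as are all positions here), with values of 128.9 in the WC list and 121.1 in the NeuroD2 list, both above percentile 99 of their lists. The nearest WCS site was 127243 bases away, the nearest MyoD site 22351 and the nearest chimera site 50827. Another region, at chr14:9119000-9119397, had values of 120.5 in the WC list and 114.6 in the NeuroD2 list. Its nearest WCS site lay 11118 bases away and had a value of 5.03, the lowest of the WCS list. Neither region lay in a dense window, and in both the WC and NeuroD2 centres were less than 100 bases apart, at 63.5 and 33.0 bases.

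Among the 3 WC-taken regions highest in both lists, 1 was much wider than the others. With values of 104.6 in the WC list and 120.1 in the NeuroD2 list, it lay at chr11:3030590-3049026, spanned 18437 bases and joined 2 NeuroD2 intervals and 1 WC interval in a dense window. The WCS-taken region with the highest values in both of its lists lay close by, at chr11:3080647-3100163, with values of 106.0 in the WCS list and 126.0 in the NeuroD2 list. It spanned 19517 bases and joined 2 NeuroD2 intervals and 1 WCS interval. The NeuroD2 value came from the interval at 3080647-3084126 and the WCS value from that at 3084103-3100146. The sites with these 2 values thus overlapped only at their ends. The nearest WC site, with a value of 103.7, began 389 bases beyond the edge of the region. Beside the WCS-taken region there was thus a WC site of high value for its list.

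Other WCS-taken regions of high NeuroD2 value had low WCS values. At chr9:75154278-75154803 the value was 6.21 in the WCS list and 92.6 in the NeuroD2 list, and the nearest WC site lay 19357 bases away. At chr9:46169663-46170252 it was 6.40 in the WCS list and 79.8 in the NeuroD2 list, with a WC site 7787 bases away. The WCS-taken regions next in WCS value lay at chr5:14986926-14987348, with 43.0 in the WCS list, 35.4 in the NeuroD2 list and a WC site 839 bases away, and on chromosome 18, with 35.7 in the WCS list, 28.4 in the NeuroD2 list and a WC site 2371 bases away. Apart from the wide interval on chromosome 11, the highest WCS value of any WCS-taken region was therefore 43.0.

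Within a one-mutant region, both proteins were listed at nearly the same place. The WC and NeuroD2 centres were a median of 32.5 bases apart in WC-taken regions (quartiles 15.5 and 55.0), and the WCS and NeuroD2 centres 33.8 bases apart in WCS-taken regions (15.5 and 57.0). In regions held by both mutants the medians were 31.5 bases for WC and 31.5 for WCS. Centres lay within 100 bases in 93.1% of WC-taken and 92.9% of WCS-taken regions. The shorter interval lay wholly inside the longer in 53.8% of WC-taken and 53.5% of WCS-taken regions, going by the interval of highest overlap. Overlaps under 50% of the shorter interval were found in 9 WC-taken and 7 WCS-taken regions, so the minimum overlap of 1 base decided few members.

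In both subsets the median mutant interval was narrower than the median NeuroD2 interval, more so in WCS-taken regions. WC intervals in WC-taken regions had a median width of 291 bp, against 326 bp for the NeuroD2 intervals of the same regions. WCS intervals in WCS-taken regions had a median width of 250 bp, against 316 bp for NeuroD2. In regions held by both mutants, WC intervals had a median of 367 bp, WCS intervals 337 bp and NeuroD2 intervals 378 bp, and NeuroD2 intervals in regions of NeuroD2 alone 292 bp. The mutant's interval was the wider in 36.4% of WC-taken regions (34.5 to 38.4%) and in 24.2% of WCS-taken regions (21.8 to 26.7%). Over whole lists the medians were 349 bp for WC, 329 bp for WCS and 341 bp for NeuroD2, so WC intervals were not narrower there. In both subsets the median mutant value lay at a lower percentile of its list than the median NeuroD2 value. The antibodies also differed between the mutants and NeuroD2. Whether either bears on the widths was not tested.

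The members just inside the rule overlapped by few bases. The smallest overlap in a WC-taken region was 3 bases, at chr15:31557142-31557875, between a WC site of value 5.36 and a NeuroD2 site of value 6.49. The smallest in a WCS-taken region was 48 bases, at chr4:145181536-145182583, with values of 13.4 in the WCS list and 6.02 in the NeuroD2 list. Just outside the rule, 88 of the 10412 regions of NeuroD2 alone had a WC site within 100 bases and 70 had a WCS site, the closest at 2 and 4 bases.

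In both subsets the share of regions with a site of the missing mutant within 1 kb was close to that in regions of NeuroD2 alone. A WCS site lay within 1 kb of 187 WC-taken regions, or 7.92% (6.87 to 9.09%), and over all merged regions without WCS 7.05% had one. A WC site lay within 1 kb of 128 WCS-taken regions, or 10.8% (9.11 to 12.7%), and over all merged regions without WC 8.13% had one. Regions of NeuroD2 alone had a WC site within 1 kb in 9.42% and a WCS site in 8.11%. The intervals of the WCS-taken and WC-taken shares hold these values. The median gap to the nearest WCS site was 19337.5 bases for WC-taken regions, and that to the nearest WC site 12850.5 bases for WCS-taken regions. The WC list is longer, which by itself shortens gaps to its sites, and for regions of NeuroD2 alone the medians were 17069 bases to a WC site and 21146.5 bases to a WCS site.

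**Figure D5:**
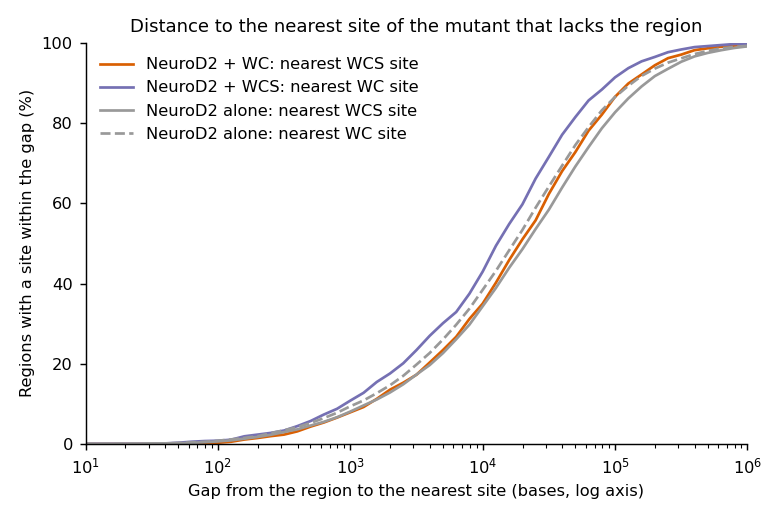
Share of regions (vertical axis, %) that had a site of the named mutant within a given gap (horizontal axis, bases, logarithmic), for WC-taken regions and WCS sites, WCS-taken regions and WC sites, and regions of NeuroD2 alone with sites of each mutant. At 1 kb the shares are 7.92% for WC-taken and 10.8% for WCS-taken regions.

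Few WC-taken and WCS-taken regions were neighbours, and the same count was not made for other regions. A WCS-taken region lay within 1 kb of 12 WC-taken regions, 0.508% of 2360, and a WC-taken region lay within 1 kb of 12 WCS-taken regions, 1.02% of 1182. Within 10 kb the counts were 69 WC-taken and 68 WCS-taken regions. The region closest to a site of the missing mutant was at chr1:87513720-87514068 among the WC-taken regions, 3 bases from a WCS site of value 19.4. Among the WCS-taken regions it was at chr4:13436022-13436328, 8 bases from a WC site of value 5.63.

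MyoD and chimera sites lay at shorter median gaps from WCS-taken than from WC-taken regions. On the autosomes the median gap to a MyoD site was 22873 bases for WC-taken regions (exact order-statistic 95% interval 21217 to 24954) and 18738 bases for WCS-taken regions (16369 to 20626), against 21415 for regions held by both mutants and 25914 for regions of NeuroD2 alone. The median gap to a chimera site was 35314 bases for WC-taken regions (32093 to 38396) and 28405 bases for WCS-taken regions (25045 to 31342), against 30472 for regions held by both mutants and 39616.5 for regions of NeuroD2 alone. The shares within 1 kb also count regions on X, where the MyoD and chimera lists have no sites. Their intervals overlapped between the subsets. A MyoD site lay within 1 kb of 4.62% of WC-taken regions (3.81 to 5.54%) and 6.60% of WCS-taken regions (5.25 to 8.17%), against 5.45% of regions held by both mutants and 5.16% of regions of NeuroD2 alone. A chimera site lay within 1 kb of 4.11% of WC-taken regions (3.35 to 4.99%) and 4.40% of WCS-taken regions (3.30 to 5.73%), against 5.21% of regions held by both mutants and 4.01% of regions of NeuroD2 alone.

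Most windows with a one-mutant region held only 1 of its kind, and the matching share for other regions was not computed. In 88.5% of the 2089 windows of 100 kb with a WC-taken region there was only 1, and in 92.8% of the 1094 windows with a WCS-taken region. No window held more than 4 WC-taken regions, a number reached in 4 windows, of which that at chr10:74500001-74600000 also had 13 NeuroD2, 10 WC and 5 WCS sites. The window with the most WCS-taken regions, at chr4:145100001-145200000, held 6 of them among 43 NeuroD2, 21 WC and 20 WCS sites. Dense windows held 7.88% of WC-taken (6.83 to 9.04%) and 9.31% of WCS-taken regions (7.71 to 11.1%), against 9.31% of regions held by both mutants and 9.83% of regions of NeuroD2 alone.

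On most chromosomes the split between the mutants was close to the genome-wide one. The WC share ranged from 56.6% on chromosome 1 (50.4 to 62.7%), with 150 WC-taken and 115 WCS-taken regions, to 74.8% on chromosome 16 (65.8 to 82.4%), with 86 and 29. The 95% interval held the genome-wide share of 66.6% on 19 of 20 chromosomes, and chromosome 1 was the exception. One-mutant regions made up between 14.6% of the NeuroD2 regions without MyoD or the chimera on chromosome 5 and 18.7% on chromosome 11 among the autosomes. On X the share was 11.5% (8.96 to 14.4%), with 41 WC-taken and 23 WCS-taken regions. The lists of MyoD and the chimera hold 0 sites on X, so no region there could be left out for overlapping them, and 1.30% of all merged regions lay on X.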

How the data were processed

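ChIP-seq site lists of 5 transduced groups of P19 cells were used, 1 list per group, named in the labels of both of its libraries. The submitters' processing notes name CASAVA 1.8.2, BWA 0.7.5 and build mm9. How sites were called and filtered, against which control, and how libraries were combined is not given in the sources used here. From their range (all above 5, finite values up to 312.2, some infinite) the deposited values look like −log10 p-values. They were compared within a list, and limits of 10 or 20 set alike in several lists need not mean the same in each. Depth per library is unknown.

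Intervals overlapping by at least 1 base were merged, and regions were classed by the lists present. Where a region had several intervals of a list, that of highest value was used, and overlaps and centre distances come from the pair of intervals that overlapped most. A percentile is the share of a list at or below a value. Gaps run from the edge of the region to the nearest site. Positions are 1-based. Shares have exact Clopper-Pearson 95% intervals.

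The regions named are, in each subset, the 3 highest by NeuroD2 value, the 3 highest by mutant value, the 3 of smallest overlap, the 3 closest to the missing mutant and the 3 windows with most members, and the leading ones are printed. Members, rules and alternatives were chosen with earlier results of these data known. The value limit of 20, the list medians as limits, the bins by mutant value and 3 alternatives for the outermost bins were chosen after the values were seen. E-boxes and genes near the regions were planned but need mm9 sequence or annotation and were not analysed here. On simulated lists of 11400 regions, 8 of 8 list combinations were recovered exactly, and 0 of 300 gaps were wrong. The work used Python 3.11.15 with scipy 1.17.1, pandas 2.3.3, numpy 2.4.6 and matplotlib 3.10.9.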

Additional observations from a re-analysis of the deposited data

How the results depend on the processing

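Of 109 values recomputed under 11 alternatives, 82 stayed within the interval of the reported value or, for counts, within 1.5 times of it, and 27 did not. With the WC list cut to the length of the WCS list, WCS-taken regions numbered 1845, the WC share was 46.3%, and in bins 1 and 5 of NeuroD2 value it was 40.9% and 56.9%. Fewer sites entered by construction in the next 3 settings. With all lists at the shortest length there were 619 WC-taken and 709 WCS-taken regions, the WC share was 46.6%, the percentile of the holding mutant was 23.1 in WC-taken regions, and 7.76% of WCS-taken regions had a WC site within 1 kb. With the upper 50% of each list the counts were 1119 WC-taken and 530 WCS-taken. The difference in median NeuroD2 width was then −3 bp (bounds −20 to 14), with 397 bp in WC-taken and 400 bp in WCS-taken regions. With full lists it was 10 bp (bounds −2 to 19), so the bounds spanned both signs each time. In the upper 50% the percentiles were 23.9 (WC-taken) and 16.4 (WCS-taken), and sites of the missing mutant lay within 1 kb of 5.36% and 5.66%. With values of at least 10 in every list the counts were 1395 WC-taken and 454 WCS-taken, the WC share was 75.4%, the percentiles were 24.9 (WC-taken) and 16.1 (WCS-taken), and the shares within 1 kb were 5.16% and 7.49%. Joining sites within 500 bases, which removes close pairs by construction, gave 2.94% (WC-taken) and 5.13% (WCS-taken) within 1 kb. Removing dense windows gave 6.26% within 1 kb for WC-taken regions and 0.126% of bin 10 of WCS value absent from WC; the cause was not tested. No paired analysis was possible because each group has 1 list, and for the same reason no library could be left out. The alternatives planned for E-boxes were not run. Unknown depth limits every statement on absence: a region missing from a list may hold binding below its threshold.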
